A study of Mus musculus with 2 samples.

Results

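The TRAV16 subgroup is a set of near-identical variable (V) segments of the mouse T cell receptor alpha locus. It supplied 90 of 1862 recovered TCR alpha (TRA) chains in CD4 single-positive (SP) thymocytes of wild-type (WT) mice and 57 of 1920 in those of Btla-/- mice, or 147 of 3782 in all. Its members were every TRA contig whose V gene was called TRAV16, TRAV16N or TRAV16D-DV11. The subgroup was chosen by its share of TRA chains, which was lower in the Btla-/- library, 2.97% (95% interval 2.26 to 3.83) against 4.83% (3.90 to 5.91), so that difference is a description here and was not tested. The features reported below that the choice did not use are the position and sequence of the copies, the TRAJ segments they joined, the make-up of their CDR3, the TCR beta (TRB) chains found beside them and their UMI counts. The clearest of these was a split by position. The copy nearest the TRAJ cluster joined TRAJ1 to TRAJ30 in 1 of 29 WT and 1 of 18 Btla-/- chains, and the other copies did so in most of their chains.

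One V(D)J library was made per genotype. The WT library came from C57BL/6J mice and the Btla-/- library from C57BL/6-Btla KO mice, which lack BTLA, an inhibitory receptor of lymphocytes, from the germline onward. Both groups were 8 to 12 weeks old with no treatment named, and CD4 SP cells were enriched from thymocytes with a negative-selection kit for naive CD4+ T cells. How many mice fed each library is not given in the sources used here, so mouse-to-mouse spread is unknown. Every interval below is an exact 95% interval, or a Newcombe interval for a difference, and covers counting error in these libraries only. The WT library held 4040 cells, 6003 contigs and 80347 UMIs (unique molecular identifiers, which count captured transcripts). The Btla-/- library held 5077 cells, 7101 contigs and 75456 UMIs. No TRA chain was recovered in 57.8% of WT and 64.6% of Btla-/- cells, and neither the CD4 SP label nor the genotype could be checked on marker transcripts, because only receptor transcripts were sequenced. The libraries shared 30 cell barcodes, carried by 1 TRAV16 cell in each, and without those barcodes the TRAV16 shares were 4.82% and 2.93%.

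A TRA chain is made when a TRAV segment recombines with one of many TRAJ segments in a CD4+CD8+ thymocyte. The first joins use TRAV segments near the TRAJ cluster with TRAJ segments at its near (5′) end, which carries the highest TRAJ numbers. If the receptor is not positively selected, later rounds on the same chromosome replace the join with TRAV segments further away and TRAJ segments nearer the constant gene TRAC. In C57BL/6 mice a stretch of the TRAV array is present in several copies, and many subgroups therefore have members far apart in the locus, named plainly or with the letters D and N. CDR1 and CDR2 are encoded by the TRAV segment, and CDR3, which faces the peptide, is formed at the join.

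All 3 copies lie on the plus strand of chromosome 14 in GRCm38, and the bases described here are in their second exon. TRAV16D-DV11 spans chr14:53047287-53047821 and lies 1109 kb before TRAJ58, the segment nearest the TRAV array among those used in these data. TRAV16N spans chr14:53351028-53351621 and lies 806 kb before it. The TRAV16 gene itself spans chr14:53743104-53743705, only 414 kb before it. The TRAJ cluster from TRAJ58 to TRAJ1 is 61.6 kb long. The germline sequences of framework 1 to framework 3 (273 bases, containing CDR1 and CDR2) are shown because they are what tells the copies apart in the contigs. The 6 capitals in each mark the positions where any copy differs, and the coordinates of these stretches are chr14:53047532-53047804, chr14:53351332-53351604 and chr14:53743416-53743688.
TRAV16D-DV11: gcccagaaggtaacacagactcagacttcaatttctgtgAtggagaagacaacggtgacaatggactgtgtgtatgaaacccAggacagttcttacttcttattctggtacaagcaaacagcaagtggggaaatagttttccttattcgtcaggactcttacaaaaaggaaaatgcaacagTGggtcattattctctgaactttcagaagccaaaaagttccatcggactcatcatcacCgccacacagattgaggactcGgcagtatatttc
TRAV16N: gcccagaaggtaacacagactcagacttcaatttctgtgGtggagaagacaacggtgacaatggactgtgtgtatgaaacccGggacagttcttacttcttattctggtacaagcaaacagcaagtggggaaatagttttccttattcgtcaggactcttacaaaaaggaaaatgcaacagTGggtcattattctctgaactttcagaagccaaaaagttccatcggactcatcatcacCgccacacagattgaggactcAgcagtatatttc
TRAV16: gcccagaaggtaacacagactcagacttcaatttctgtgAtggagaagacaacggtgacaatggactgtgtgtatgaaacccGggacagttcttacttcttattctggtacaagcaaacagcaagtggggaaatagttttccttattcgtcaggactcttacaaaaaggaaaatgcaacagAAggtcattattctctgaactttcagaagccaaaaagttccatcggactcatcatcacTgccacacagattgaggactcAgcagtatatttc
Counting from the first base of framework 1, TRAV16N differed from the TRAV16 gene by A40G, A182T, A183G and T240C, and TRAV16D-DV11 differed from it by G83A, A182T, A183G, T240C and A261G. A40G changes the encoded residue in framework 1 (M14V), G83A changes CDR1 (R28Q), and A182T with A183G change framework 3 (E61V). T240C and A261G are synonymous. CDR2 was the same in all copies. TRAV16N and TRAV16D-DV11 were 98.9% identical over the 273 bases, TRAV16N and the TRAV16 gene 98.5%, and TRAV16D-DV11 and the TRAV16 gene 98.2%. Any pair differed at 2 of 91 residues. Of the deposited contigs, 31 of 31 called TRAV16D-DV11, 69 of 69 called TRAV16N and 47 of 47 called TRAV16 gene carried exactly the sequence of the named copy. The copy calls therefore rest on 3 to 5 bases that were each read as germline.

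The bases that each copy contributes to CDR3 and the recombination signal that follows them are also shown, because they were the same in all 3 copies. In the CDR3 part the capitals mark the codon of the conserved cysteine at which CDR3 begins. In the signal the capitals mark the heptamer and the nonamer, on either side of a 23-base spacer.
CDR3 bases of each copy: TGTgctatgagagaggg
signal of each copy: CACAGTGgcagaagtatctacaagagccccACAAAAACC
The signal lies at chr14:53047822-53047860 for TRAV16D-DV11, chr14:53351622-53351660 for TRAV16N and chr14:53743706-53743744 for the TRAV16 gene. Of the 128 TRAV genes in the annotation, 99 (77.3%) had this heptamer at the end of the coding bases, 4 (3.12%) had this nonamer after a 23-base spacer, and only the 3 TRAV16 copies had the whole 39-base signal. Identity stayed high around the copies. The 250 bases before the leader were 97.2% identical between TRAV16D-DV11 and TRAV16N, 94.1% between TRAV16D-DV11 and the TRAV16 gene and 96.8% between TRAV16N and the TRAV16 gene. The 500 bases after the signal were 99.8%, 96.8% and 96.6% identical for the same pairs. The copies thus differed in place far more than in the sequence of their coding end or signal.

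TRAV16N was the copy used most in both libraries. It gave 45 WT chains, the TRAV16 gene 29 and TRAV16D-DV11 16. In the Btla-/- library TRAV16N gave 24 chains, the TRAV16 gene 18 and TRAV16D-DV11 15. Within the WT subgroup TRAV16N made up 50% (39.3 to 60.7), and within the Btla-/- subgroup it made up 42.1% (29.1 to 55.9). The TRAV16 gene made up 32.2% (22.8 to 42.9) and 31.6% (19.9 to 45.2), and TRAV16D-DV11 17.8% (10.5 to 27.3) and 26.3% (15.5 to 39.7). For each copy the intervals of the libraries overlapped, so a shift in the mix of copies was not detectable at this depth.

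As a share of all TRA chains, TRAV16N was 2.42% (1.77 to 3.22) in the WT and 1.25% (0.802 to 1.85) in the Btla-/- library, a difference of -1.17 percentage points and a ratio of 0.517. The TRAV16 gene was 1.56% (1.05 to 2.23) and 0.938% (0.557 to 1.48), a ratio of 0.602. TRAV16D-DV11 was 0.859% (0.492 to 1.39) and 0.781% (0.438 to 1.29), a ratio of 0.909. The lower share of the whole subgroup, by 1.86 percentage points, was thus mostly made up of TRAV16N chains, with a further part from the TRAV16 gene. TRAV16N was also 50% of the WT subgroup, and no shift in the mix of copies was detectable. Among the 16 subgroups with at least 1% of chains, 1 (6.25%) had intervals that did not overlap between the libraries, and that was TRAV16 itself. Among the 48 single TRAV genes over the same limit, which TRAV16D-DV11 did not reach, 1 (2.08%) did, and it was no TRAV16 copy. Nothing is read from these counts, since they use the contrast by which the subgroup was chosen.

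TRAV16 was neither a rare nor a leading subgroup. It ranked 8 of 20 in the WT library, below TRAV9 at 6.71% (5.62 to 7.95) and above TRAV3 at 4.14% (3.28 to 5.14). It ranked 10 of 20 in the Btla-/- library, below TRAV8 at 3.54% (2.76 to 4.47) and above TRAV5 at 2.86% (2.17 to 3.71). In each case its interval overlapped those of both neighbours. The other subgroups whose log2 ratio of Btla-/- to WT share came nearest to that of TRAV16 (-0.70), of 15 compared, were TRAV21 at -0.57 and TRAV17 at -0.99.

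**Figure D1:**
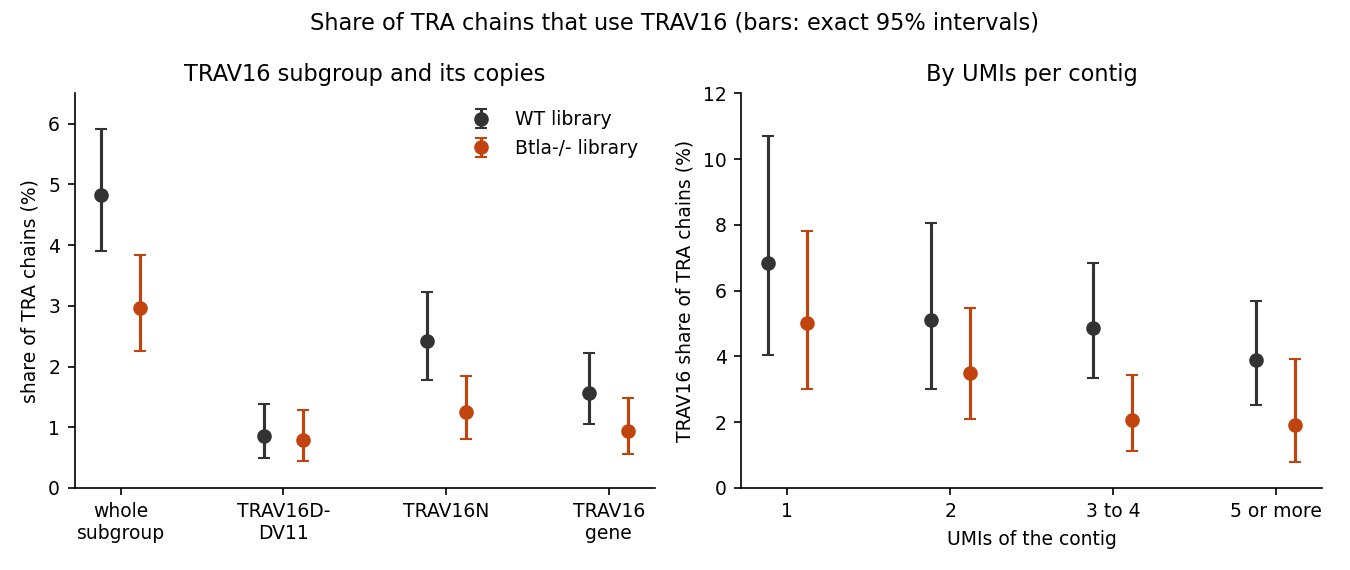
Share of TRA chains (%, vertical axes) that used TRAV16 in the WT (black) and Btla-/- (orange) library. At left are the whole subgroup and its 3 copies, at right the whole subgroup among contigs with 1, 2, 3 to 4 and 5 or more UMIs. Points are shares and bars exact 95% intervals for counting error. The whole subgroup stood at 4.83% and 2.97%, the largest gap in points among the copies was that of TRAV16N, and the Btla-/- point was the lower one in each UMI class.

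The shares of the genes around each copy are given for comparison. The neighbours are the other TRAV genes with chains in these data that lie within 100 kb. The 12 such genes around the TRAV16 gene gave 14.2% (12.6 to 15.8) of the WT TRA chains and 10.1% (8.79 to 11.5) of those from Btla-/- cells, a ratio of 0.713. The 16 genes around TRAV16N made up 21.3% (19.4 to 23.2) and 24.7% (22.8 to 26.7), a ratio of 1.16. The 11 genes around TRAV16D-DV11 made up 6.82% (5.72 to 8.06) and 7.34% (6.22 to 8.60), a ratio of 1.08. Beside these stand the ratios of the copies themselves, 0.602 for the TRAV16 gene, 0.517 for TRAV16N and 0.909 for TRAV16D-DV11. The intervals of each copy overlapped between the libraries, and these ratios belong to the contrast by which the subgroup was chosen, so no pattern by position is read from them.

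Copies at different positions were found with different TRAJ segments, and this was the sharpest contrast inside the subgroup. Of the WT chains, 10 of 16 TRAV16D-DV11 (62.5%, 35.4 to 84.8) and 33 of 45 TRAV16N (73.3%, 58.1 to 85.4) had joined TRAJ1 to TRAJ30, the part of the cluster nearer TRAC, but only 1 of 29 TRAV16 gene chains (3.45%, 0.0873 to 17.8) had. The Btla-/- library showed the same order of the TRAV16 gene below the others. There 10 of 15 TRAV16D-DV11 (66.7%, 38.4 to 88.2) and 15 of 24 TRAV16N (62.5%, 40.6 to 81.2) had joined TRAJ1 to TRAJ30, against 1 of 18 TRAV16 gene chains (5.56%, 0.141 to 27.3). The TRAV16 gene lay below the other copies together by 67.0 percentage points in the WT (the difference was -67.0, interval -77.4 to -48.6) and by 58.5 in the Btla-/- library (the difference was -58.5, interval -72.5 to -33.0). Both intervals exclude 0. The TRAV16D-DV11 and TRAV16N intervals overlapped in each library.

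The median TRAJ number was 48 for WT and 49 for Btla-/- chains of the TRAV16 gene. It was 22 and 23 for TRAV16N, and 27.5 and 22 for TRAV16D-DV11. The single TRAV16 gene chain below TRAJ31 used TRAJ9 in the WT and TRAJ23 in the Btla-/- library. The more distant copies reached up to TRAJ52 for TRAV16N and TRAJ57 for TRAV16D-DV11, so their ranges overlapped that of the TRAV16 gene while their medians did not come near it.

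Other TRAV genes followed the same positions. Within 100 kb of the TRAV16 gene, chains of other TRAV genes had joined TRAJ1 to TRAJ30 in 9.85% (6.53 to 14.1) of cases in the WT and in 9.79% (6.00 to 14.9) in the Btla-/- cells. Around TRAV16N those shares were 72.5% (67.8 to 76.8) and 74.3% (70.1 to 78.2), and around TRAV16D-DV11 67.7% (58.8 to 75.7) and 73.0% (64.9 to 80.2). The interval of each TRAV16 copy included the value of its neighbours in the same library, and the TRAJ split was therefore not particular to TRAV16.

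**Figure D2:**
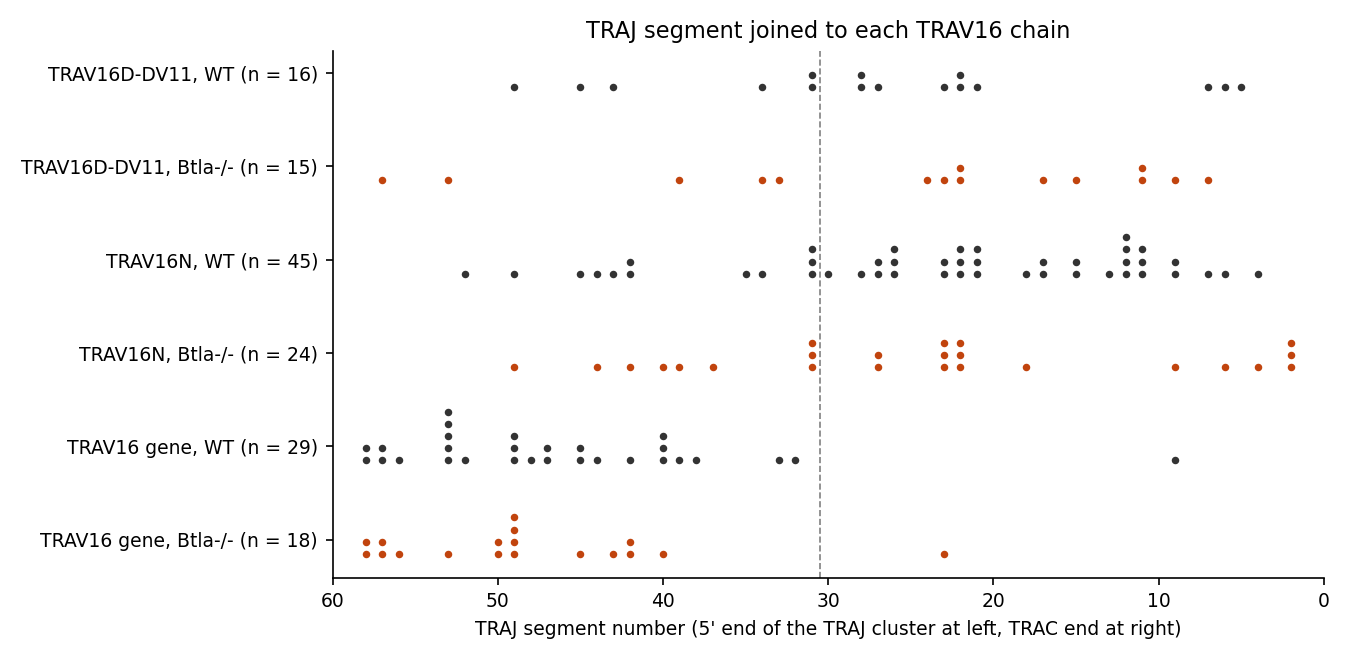
Each dot is 1 TRAV16 chain at the number of the TRAJ segment it joined (horizontal axis, 5′ end of the cluster at left and TRAC end at right), in rows by copy and library, WT in black and Btla-/- in orange. Dots stack where chains share a segment, and the dashed line separates TRAJ30 from TRAJ31. In the TRAV16 gene rows 1 dot each lies right of the line, whereas most dots of the other copies do.

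Taken over the whole subgroup, the copies added up to an even spread. TRAJ1 to TRAJ30 were used by 44 of 90 WT chains (48.9%, 38.2 to 59.7) and 26 of 57 Btla-/- chains (45.6%, 32.4 to 59.3), a difference of -3.27 percentage points (-19.2 to 13). TRA chains of all other subgroups moved from 48.6% to 58.3%, a difference of 9.70 points (6.46 to 12.9). The TRAV16 interval includes that value, so a separate behaviour of TRAV16 was not detectable. Among TRA chains with TRAJ1 to TRAJ30, TRAV16 made up 4.86% (3.55 to 6.47) in the WT and 2.34% (1.53 to 3.40) in the Btla-/- library. Among chains with TRAJ31 and above it made up 4.81% and 3.84%. The differences were -2.52 points (-4.28 to -0.902) and -0.970 points (-2.88 to 0.988), with overlapping intervals, and they reuse the share by which the subgroup was chosen.

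Single TRAJ partners were many and thinly used. The WT chains joined 38 segments and the Btla-/- chains 29, 25 of them in both libraries, and 42 of the 43 segments seen in any TRA chain. No segment was joined more than 5 times in a library, and 12 WT and 14 Btla-/- segments were joined once. The most used were TRAJ22, TRAJ31, TRAJ49 and TRAJ53 with 5 chains each in the WT, and TRAJ22, TRAJ23 and TRAJ49 with 5 each in the Btla-/- library. TRAJ22 chains came from TRAV16N and TRAV16D-DV11, and TRAJ53 was joined by the TRAV16 gene alone in the WT.

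TRAV16 chains had a long CDR3. The mean was 14.9 amino acids (SD 1.38, n = 90 chains) in the WT library against 13.7 (SD 1.46, n = 1772) for other TRAV chains, a difference of 1.18 (SE 0.149). In the Btla-/- library it was 14.7 (SD 1.47, n = 57) against 13.7 (SD 1.49, n = 1863), a difference of 1.03 (SE 0.198). These differences were 5 or more times their standard errors. Chains with at least 15 amino acids were 66.7% (55.9 to 76.3) of the WT TRAV16 set and 50.9% (37.3 to 64.4) of the Btla-/- set, and 26.9% and 28.4% of the others. Among the 16 subgroups with at least 1% of chains, the TRAV16 mean ranked 2 in the WT, after TRAV21 with 15.1, and 3 in the Btla-/- library. Between the libraries the TRAV16 mean differed by -0.170 amino acids (SE 0.243), less than its standard error.

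**Figure D3:**
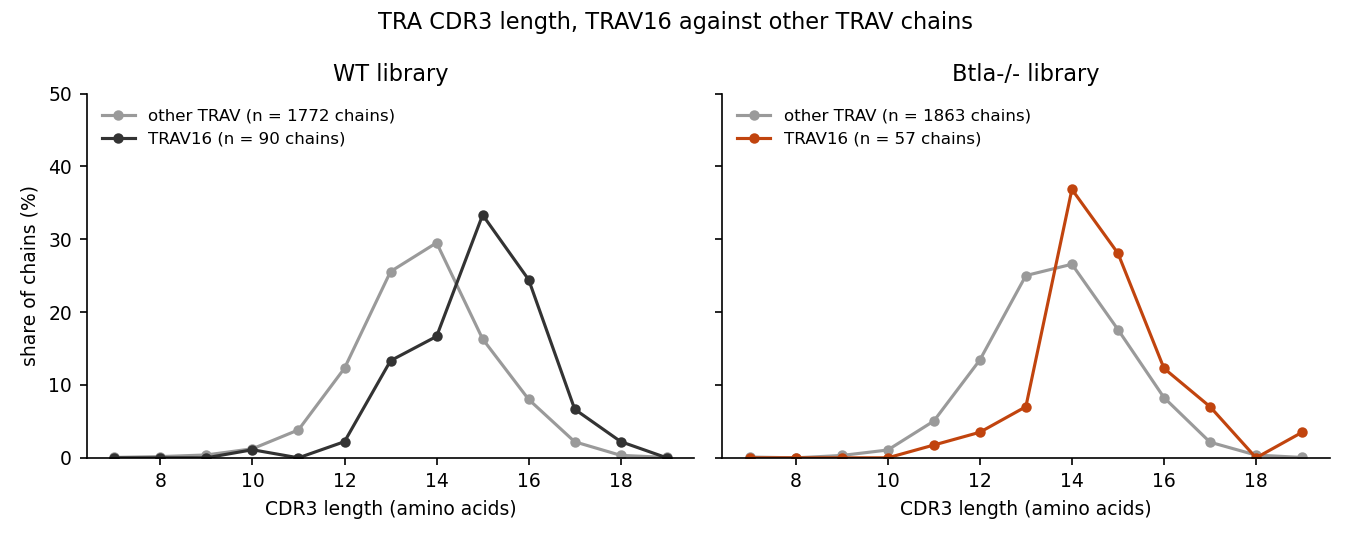
Distribution of TRA CDR3 length (horizontal axis, amino acids) as a share of chains (vertical axis, %), for TRAV16 chains (black in the WT panel, orange in the Btla-/- panel) and chains of all other TRAV subgroups (grey). The TRAV16 curves lie to the right of the grey ones, with most chains at 15 amino acids in the WT and at 14 in the Btla-/- library.

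The added length sat at the V end. On average 14.9 bases of the WT TRAV16 CDR3 matched the germline TRAV segment, against 11.4 in other chains, a difference of 3.55 bases (SE 0.240). The Btla-/- values were 14.2 and 11.3, a difference of 2.87 (SE 0.343). The TRAJ part was 27.0 against 26.6 bases in the WT and 27.6 against 26.7 in the Btla-/- library. The bases that matched neither germline segment, which include the nucleotides added at the join, were 2.72 against 3.15 and 2.40 against 3.04. These differences of means were within 2 standard errors of 0. The medians were 2 bases in TRAV16 and 3 in other chains of both libraries. Single TRAV16 chains held 22 such bases in the WT (TRAJ48) and 18 in the Btla-/- library (TRAJ57), which raises these means and their standard errors. The most in other chains was 31 and 21. The comparison was not repeated without such chains. The germline end of TRAV16, printed above, brings 17 bases into CDR3, while the other TRAV chains of these libraries had 13.6 available on average, so the extra germline bases alone are close to the extra bases kept.

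Trimming of the V end was small. The first 9 germline bases were kept in 89 of 90 WT and 55 of 57 Btla-/- chains, and the first 14 in 75.6% (65.4 to 84.0) and 66.7% (52.9 to 78.6). All 17 were kept in 35 WT chains (38.9%, 28.8 to 49.7) and 10 Btla-/- chains (17.5%, 8.75 to 29.9). The mean loss was 2.06 bases per WT and 2.82 per Btla-/- chain, against 2.19 and 2.27 in other TRAV chains. The Btla-/- TRAV16 mean exceeded the WT one by 0.769 bases, under 2 standard errors (SE 0.410). No base outside the germline segments was present in 21.1% (13.2 to 31) of the WT TRAV16 CDR3 and 28.1% (17 to 41.5) of the Btla-/- ones. The shares of the others were 12.9% (11.4 to 14.6) and 13.1% (11.6 to 14.7). The intervals overlapped in the WT and were apart in the Btla-/- library.

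**Figure D4:**
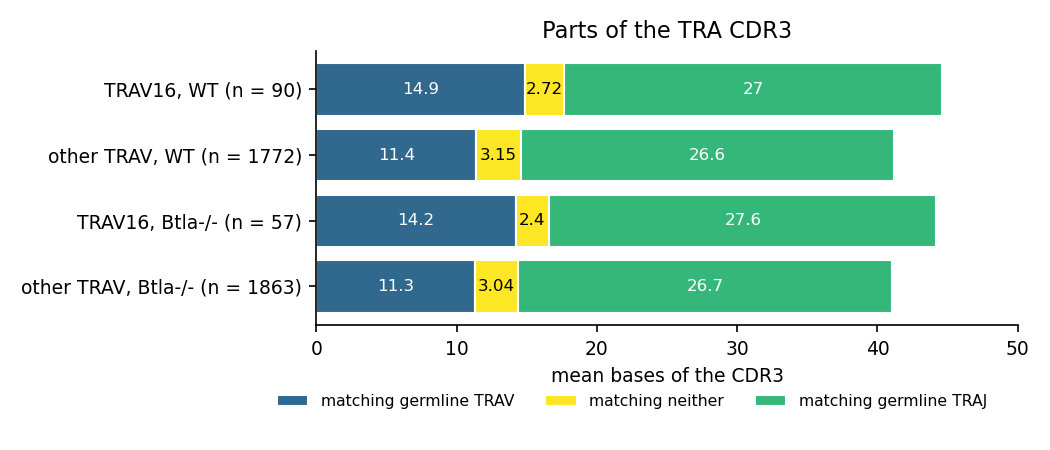
Mean number of CDR3 bases (horizontal axis) that matched the germline TRAV segment (blue), neither segment (yellow) or the germline TRAJ segment (green), for TRAV16 and for other TRAV chains in each library. The blue part is 14.9 and 14.2 bases long in TRAV16 chains and 11.4 and 11.3 in others. The means of the other parts differ by at most 0.868 bases.

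Among the copies, the TRAV16 gene had the longest mean CDR3 in both libraries. The TRAV16 gene had a mean CDR3 of 15.5 amino acids (SD 1.24, n = 29) in the WT and 15.3 (SD 1.64, n = 18) in the Btla-/- library. The other copies together had 14.6 and 14.4, differences of 0.876 (SE 0.289) and 0.897 (SE 0.441). The Btla-/- chains of the TRAV16 gene include 2 CDR3 of 15 and 19 amino acids that each occurred in 2 cells with a shared TRB CDR3. The standard error treats these chains as independent, and the difference was not computed with each distinct chain once. A length difference in the Btla-/- library is therefore uncertain. Since the 17 germline V bases are the same, the difference lay in what was trimmed, added and brought by TRAJ, but no single part of the junction differed by as much as 2 standard errors in either library.

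The CDR3 sequences of the chain with the most UMIs for each copy and library are shown as examples of these joins. Lower case marks bases that match the germline TRAV segment at the left and the TRAJ segment at the right, and capitals mark bases that match neither.
WT TRAV16D-DV11 with TRAJ31: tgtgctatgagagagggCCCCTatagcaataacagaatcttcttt
WT TRAV16N with TRAJ21: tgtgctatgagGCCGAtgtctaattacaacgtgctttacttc
WT TRAV16 with TRAJ58: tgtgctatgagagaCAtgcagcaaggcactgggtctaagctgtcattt
Btla-/- TRAV16D-DV11 with TRAJ23: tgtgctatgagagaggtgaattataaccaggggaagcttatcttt
Btla-/- TRAV16N with TRAJ27: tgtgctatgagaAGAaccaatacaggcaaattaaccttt
Btla-/- TRAV16 with TRAJ23: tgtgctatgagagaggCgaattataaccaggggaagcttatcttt
These chains carried 5 to 15 UMIs. The V part of all 6 begins with the same 11 bases, and the Btla-/- chain of TRAV16D-DV11 with TRAJ23 has no base outside the germline segments.

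A few CDR3 sequences recurred. The sequence below was the only TRAV16 CDR3 found in both libraries. It is TRAV16 joined to TRAJ22 with no added base, and it was found in 1 WT TRAV16N chain, 1 WT TRAV16D-DV11 chain and 1 Btla-/- TRAV16D-DV11 chain, which carried 6, 3 and 2 UMIs and had no TRB CDR3 in common.
TRAJ22, 45 bases: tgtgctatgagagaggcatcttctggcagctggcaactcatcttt
A second TRAJ22 CDR3 occurred in 1 TRAV16D-DV11 and 1 TRAV16N chain of the Btla-/- library, again with different TRB chains. It is shown because it needed only the 2 bases in capitals.
TRAJ22, 42 bases: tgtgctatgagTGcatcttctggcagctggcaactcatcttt
The remaining repeats shared a TRB CDR3 between their 2 cells. They are shown because their longer capitals contrast with the joins above. One came from TRAV16N in the WT library, with TRAJ21, on 1 UMI in each cell, and the full TRB sets of these cells were not the same. The others came from the TRAV16 gene in the Btla-/- library, with TRAJ49 (3 and 4 UMIs) and TRAJ58 (1 and 2 UMIs).
TRAJ21: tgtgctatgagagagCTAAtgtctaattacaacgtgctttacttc
TRAJ49: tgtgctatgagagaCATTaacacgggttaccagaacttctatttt
TRAJ58: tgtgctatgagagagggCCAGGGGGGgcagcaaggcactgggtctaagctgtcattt
In all, 4 of 90 WT chains (4.44%, 1.22 to 11) and 6 of 57 Btla-/- chains (10.5%, 3.96 to 21.5) had a CDR3 carried by another TRAV16 chain of the same library. Of the other TRAV chains, 5.98% of 1772 and 8.75% of 1863 had a repeated CDR3, within both TRAV16 intervals. Those chains form a much larger pool with more possible matches, so the shares are not like for like.

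A TRB chain was recovered in 87 of 88 WT cells with a TRAV16 chain and in 56 of 57 such Btla-/- cells. The 96 WT and 61 Btla-/- TRB chains were spread over 18 and 17 of 19 TRBV subgroups. TRBV13 came first in both libraries, with 18 chains in the WT (18.8%, 11.5 to 28.0) and 11 in the Btla-/- library (18.0%, 9.36 to 30), against 13.1% and 12.3% in cells that had other TRA chains. TRBV5 came next, with 14 (14.6%, 8.21 to 23.3) and 6 chains (9.84%, 3.70 to 20.2), against 7.02% and 6.63%. After these came TRBV15 with 8 and TRBV12 and TRBV19 with 7 chains each in the WT, and TRBV1, TRBV10 and TRBV12 with 5 each in the Btla-/- library. In neither library did any TRBV subgroup have an interval in TRAV16 cells apart from that in other cells, so no preferred pairing was detectable at this depth. The TRB CDR3 of TRAV16 cells had a mean of 14.3 amino acids in both libraries (SD 1.30 and 1.64).

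**Figure D5:**
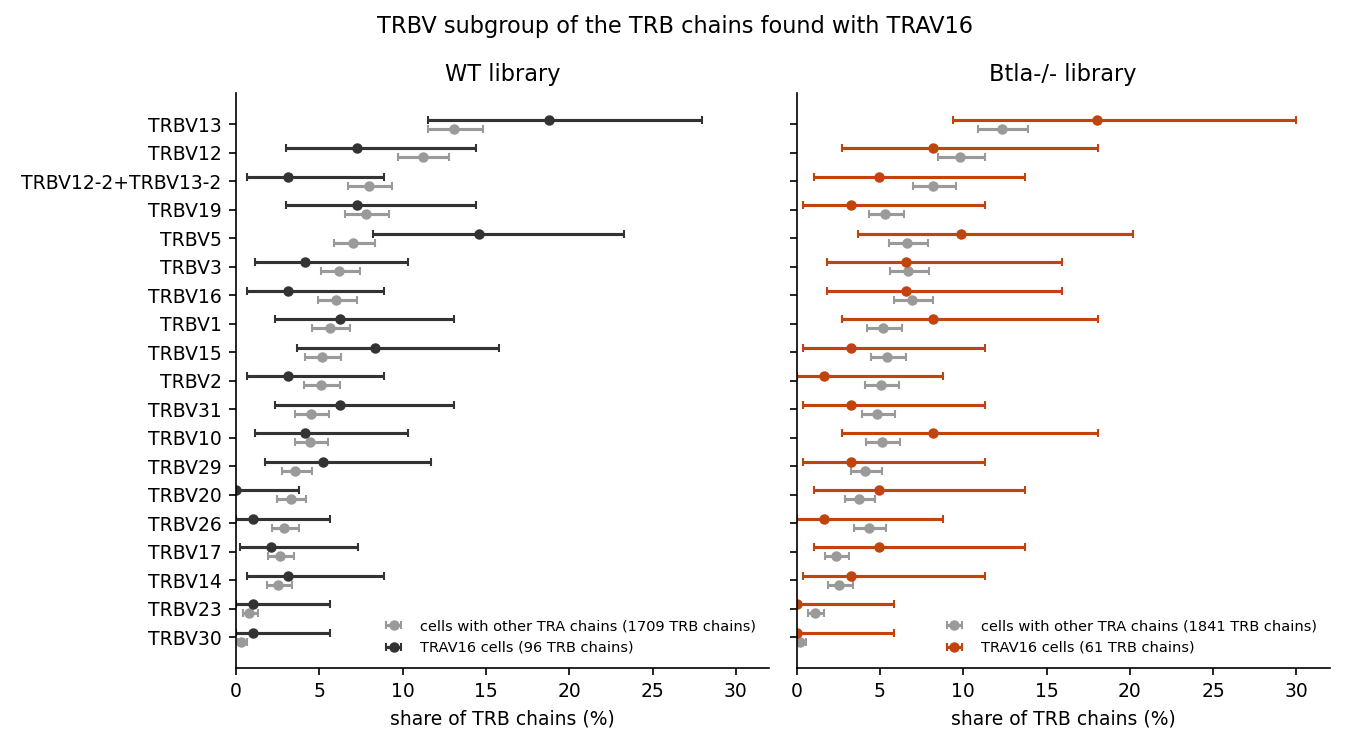
Share of TRB chains (horizontal axis, %) by TRBV subgroup in cells with a TRAV16 chain (black in the WT, orange in the Btla-/- panel) and in cells with other TRA chains only (grey). Points are shares and bars exact 95% intervals, and TRBV12-2+TRBV13-2 is a joint gene call left as its own class. TRBV13 is highest in both panels, and each coloured bar overlaps the grey bar of its subgroup.

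TRAV16 cells had a second TRA chain more often in the WT library, 16 of 88 cells (18.2%, 10.8 to 27.8) against 8.79% (7.45 to 10.3) of cells with other TRA chains only. In the Btla-/- library it was 8 of 57 (14%, 6.26 to 25.8) against 6.55% (5.43 to 7.81), where the intervals overlap. A cell with 2 TRA chains has 2 chances to hold a given subgroup, which raises this share for any subgroup. No doublet caller was run here, and cells with more than 1 chain of a kind were kept, so droplets that held 2 cells may be among them. The second chain was most often TRAV7 in the WT, in 4 of 14 cells, and was spread over 7 subgroups in the Btla-/- library. TRAV7 gave 12.7% (11.2 to 14.3) of all WT TRA chains, and no partner preference is read from so few cells. In 2 WT cells both TRA chains were TRAV16. One held the TRAV16 gene with TRAJ40 (4 UMIs) and TRAV16N with TRAJ34 (2 UMIs), and it also held 2 TRB chains. The other held a pair of TRAV16D-DV11 chains with TRAJ28 (2 UMIs each), with CDR3 of 48 and 51 bases.

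TRAV16 contigs rested on few molecules, and more so in the Btla-/- library. The median was 3 UMIs (range 1 to 15) for the 90 WT contigs, as for other TRA contigs (3, range 1 to 24), and 2 UMIs (1 to 8) for the 57 Btla-/- contigs against 3 (1 to 35). Contigs under 3 UMIs made up 37.8% (27.8 to 48.6) of WT TRAV16 contigs and 30.9% (28.8 to 33.1) of others, and 63.2% (49.3 to 75.6) and 44.9% (42.7 to 47.2) in the Btla-/- library, where the intervals do not overlap. That separation held at this limit only. Contigs under 2 UMIs made up 31.6% (19.9 to 45.2) of Btla-/- TRAV16 contigs and 18.3% (16.6 to 20.1) of others, and contigs under 5 UMIs 87.7% (76.3 to 94.9) and 80.8% (79.0 to 82.6), with overlapping intervals. TRAV16 took 328 of 7697 WT TRA UMIs (4.26%) and 146 of 6039 Btla-/- TRA UMIs (2.42%). Fewer cells with TRAV16 and less TRA RNA recovered per cell both lower such a sum.

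The share of TRAV16 was lower in contigs with more UMIs in both libraries, with overlapping intervals between classes of a library. Of WT contigs with 1, 2, 3 to 4 and 5 or more UMIs, TRAV16 made up 6.83%, 5.11%, 4.87% and 3.89%. Of Btla-/- contigs it made up 5.01%, 3.50%, 2.05% and 1.92%. The intervals of the libraries overlapped in each class. UMI depth moved with genotype in these libraries, and its part in the lower share was not tested.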

How the data were processed

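Single-cell TCR libraries were made with the 10x Genomics V(D)J workflow, 1 per genotype. The authors assembled and annotated contigs with Cell Ranger 7.2.0 against its prebuilt GRCm38 mouse reference, and the deposited contig tables give read counts and UMI counts per contig, not normalised. Columns holding other per-series summaries made by the authors were not used. Each row with a TRA chain was counted as 1 chain. Because there was 1 library per genotype, no p-value was computed. Shares carry exact Clopper-Pearson 95% intervals and differences Newcombe intervals (SciPy 1.17.1, pandas 2.3.3, NumPy 2.4.6, Python 3.11.15). Subgroups with at least 1% of chains in either library were compared. Germline sequences were read from the GRCm38 genome with GENCODE annotation (Biopython 1.88). Each CDR3 was split into its longest match to the germline TRAV end, then to the TRAJ start, in all 3782 TRA chains. Chance matches can shorten the unmatched stretch, and a base that differs inside the TRAJ part lengthens it. Doublets were not removed. Named segments were the 5 most used, with ties. The members, lists and comparisons were chosen with earlier results of these data known.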

Additional observations from a re-analysis of the deposited data

How the results depend on the processing

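The share of TRAV16 was lower in the Btla-/- library under 7 of 7 ways of counting the whole subgroup, by -1.76 to -2.37 percentage points, and the intervals stayed apart in 5. They overlapped with at least 5 UMIs (3.89% and 1.92%) and in cells with exactly 1 TRA and 1 TRB chain. These ways of counting use overlapping sets of the same chains and the share by which the subgroup was chosen. A lower share in them was thus largely set in advance, and no support is drawn from it. With at least 3 UMIs the Btla-/- share was 2.01%. Counted alone, TRAV16D-DV11 gave 0.859% and 0.781% (-0.0780 points), TRAV16N 2.42% and 1.25%, and the TRAV16 gene 1.56% and 0.938% (-0.620 points), each pair with overlapping intervals. The TRAJ1 to TRAJ30 share with at least 5 UMIs was 64.0% and 85.7%, a difference of 21.7 points on 25 and 7 chains. With the boundary at TRAJ20 it was 24.4% and 22.8%, and at TRAJ40 65.6% and 63.2%. By copy, in alternatives chosen after seeing the data, TRAJ20 gave 18.8% for WT TRAV16D-DV11, 40% and 29.2% for TRAV16N and 0% for the Btla-/- TRAV16 gene (0 of 18 chains, interval up to 18.5%). TRAJ40 gave 87.5% for Btla-/- TRAV16N and 27.6% for the WT TRAV16 gene. With at least 3 UMIs, TRAV16D-DV11 made up 14.3% of the Btla-/- subgroup, on 21 chains. Both chains were then found in 85.7% of Btla-/- TRAV16 cells, -12.5 points from the WT (-32.9 to -0.448). The limit applied to TRB contigs as well, so a cell whose TRB contigs all fell under it counted as without a TRB chain. Without shared barcodes both chains were found in 100% of WT TRAV16 cells. Contigs under 2 UMIs made up 18.9% and 31.6%, and under 5 UMIs 72.2% and 87.7%. Of 152 alternative values over 33 results, 120 stayed within the main interval and 32 did not. Some of these alternatives change the quantity itself, such as single copies set against the whole subgroup or other TRAJ and UMI limits. Others are held against wide intervals on few chains, so the count is no measure of stability. No paired analysis was possible because each genotype had 1 library. With 57 Btla-/- chains, 18 of them from the TRAV16 gene, only large differences within the subgroup can be seen, and library, mouse and genotype cannot be told apart.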
